A study of Mus musculus with 18 samples.

Results

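The 40 genes described here encode proteins of the G2 phase and of mitosis. They were picked by symbol from the 23949 genes of the deposited expression table, and 40 of 40 were found and passed the filter on low values, a floor of 1 RPKM (read count scaled to transcript length and library size) reached in 3 or more of the 18 libraries. The libraries were made from total RNA of regulatory T cells (Treg), a CD4+ lineage that restrains immune responses, sorted as CD4+CD25hi cells from C57BL/6 mice. There were 6 genotypes with 3 libraries each. In cluster Tg mice T cells overexpressed the whole miR-23 cluster. In miR-27 Tg, miR-24 Tg and miR-23 Tg mice T cells overexpressed 1 of its 3 members. In DKO mice T cells lacked the miR-23a cluster and its paralog, the miR-23b cluster. WT mice were the controls. The series title names CD4cre, and the alterations are described as specific to T cells, so they are not limited to Treg. The sort is given by CD4 and CD25, without Foxp3. Age, sex and whether the 3 libraries of a group came from separate animals were not given, so p-values measure the spread between these libraries, which may be technical.

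Mitotic entry is driven by cyclin-dependent kinase 1 bound to A- and B-type cyclins, and the kinases Plk1 and Aurora A and B then shape the spindle and its attachments. The spindle checkpoint holds back the ubiquitin ligase APC/C until each kinetochore is attached, and APC/C with its coactivator Cdc20 then triggers anaphase. Most of these genes are transcribed late in the cell cycle, and MuvB complexes with B-Myb and Foxm1 are known to act at their promoters. In resting T cells the genes are low, and a fraction of Treg in the body is known to divide.

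The 3 microRNAs are shown with the seed, bases 2 to 8, in capitals, since the seed is what pairs with target transcripts (RefSeq, GRCm38.p6).
miR-27a-3p: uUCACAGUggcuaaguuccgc
miR-24-3p: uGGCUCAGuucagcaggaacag
miR-23a-3p: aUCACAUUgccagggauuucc
The seeds differ between the 3, and matches to them were no more frequent in the 3′ untranslated regions of the mitotic genes than in those of all tested genes. The miR-27 site ACTGTGA was present in 4 of 40 genes (Cdk1, Aurka, Nusap1 and Mad2l1), or 10% against 17.1% of 10195 tested genes with an annotated region. The miR-24 site CTGAGCC was present in 7 of 40 (Cdk1, Birc5, Plk1, Tpx2, Mad2l1, Cdca3 and Foxm1), or 17.5% against 18.9%. The miR-23 site AATGTGA was present in 4 of 40 (Ube2c, Birc5, Cenpf and Mad2l1), or 10% against 16.4%. The regions were shorter in the mitotic genes, with a median of 637 bases against 1142 bases over the tested genes. Sites were counted as exact letters on the transcript, and none of these counts shows repression.

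A RefSeq promoter window, 250 bases before to 50 after the start, was available for 35 of the 40 genes. A pair of motifs known from G2/M promoters was frequent in them. CCAAT, the box bound by NF-Y, was found on either strand in 27 of 35 genes (77.1%, 95% Wilson interval 61 to 87.9%), against 43.1% of 8519 tested genes with a window and 37.4% of all 32851 windows. The cell cycle homology region (CHR), searched as TTTGAA or TTCGAA on either strand, was found in 28 of 35 genes (80%, interval 64.1 to 90%), against 16.3% of these tested genes and 19.2% of all windows. Both were present in 24 of 35 genes (68.6%, interval 52 to 81.4%), against 6.7% of tested genes and 7.52% of all windows. The E2F site TTTCGCGC or TTTGGCGC was present in 2 of 35 (5.71%, interval 1.58 to 18.6%), an interval that holds the 1.98% of tested genes, and in 0.813% of all windows. The 200 bases before the start are shown for 5 members that hold both motifs in this stretch (from 3 role groups: a cyclin-dependent kinase, Cdc20 and Ube2c of APC/C, and Mki67 and Top2a of chromosomes), with CCAAT, CHR and their reverse complements in capitals (GRCm38.p6, read on the gene's strand). They are not typical of the set, since 27 of 35 genes have CCAAT in this stretch, 12 have CHR, 10 have both and 6 (Anln, Birc5, Mad2l1, Ndc80, Nuf2 and Nusap1) have neither.
Mki67, chr7:135716380-135716579, minus strand: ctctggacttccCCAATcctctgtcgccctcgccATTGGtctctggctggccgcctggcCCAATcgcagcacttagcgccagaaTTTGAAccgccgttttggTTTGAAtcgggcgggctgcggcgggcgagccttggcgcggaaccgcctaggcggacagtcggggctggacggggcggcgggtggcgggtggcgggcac
Top2a, chr11:99024190-99024389, minus strand: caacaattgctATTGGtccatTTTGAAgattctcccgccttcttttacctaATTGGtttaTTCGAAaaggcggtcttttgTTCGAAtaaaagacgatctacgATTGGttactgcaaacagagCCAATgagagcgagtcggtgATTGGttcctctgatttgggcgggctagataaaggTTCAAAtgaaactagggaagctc
Cdk1, chr10:69352913-69353112, minus strand: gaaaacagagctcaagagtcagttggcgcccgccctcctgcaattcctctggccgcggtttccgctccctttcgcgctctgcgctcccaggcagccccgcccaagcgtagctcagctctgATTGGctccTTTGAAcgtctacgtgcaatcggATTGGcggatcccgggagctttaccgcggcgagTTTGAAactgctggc
Cdc20, chr4:118437344-118437543, minus strand: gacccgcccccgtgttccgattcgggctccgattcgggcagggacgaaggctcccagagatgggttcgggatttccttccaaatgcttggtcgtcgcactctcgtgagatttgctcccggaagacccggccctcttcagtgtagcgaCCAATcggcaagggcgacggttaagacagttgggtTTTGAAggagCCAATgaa
Ube2c, chr2:164769729-164769928, plus strand: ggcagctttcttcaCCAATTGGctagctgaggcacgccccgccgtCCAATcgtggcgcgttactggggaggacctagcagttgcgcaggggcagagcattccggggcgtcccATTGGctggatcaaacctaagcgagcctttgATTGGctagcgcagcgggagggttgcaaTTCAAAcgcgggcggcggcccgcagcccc
In these stretches Top2a has 5 CCAAT and 4 CHR matches, Ube2c has 5 and 1, Mki67 has 3 and 2, Cdk1 has 2 and 2, and Cdc20 has 2 and 1. TTCGAA reads the same on both strands and was counted once. The Ube2c run CCAATTGG holds a CCAAT on each strand, and these overlap. A match is only a run of letters, and no binding was measured.

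**Figure D1:**
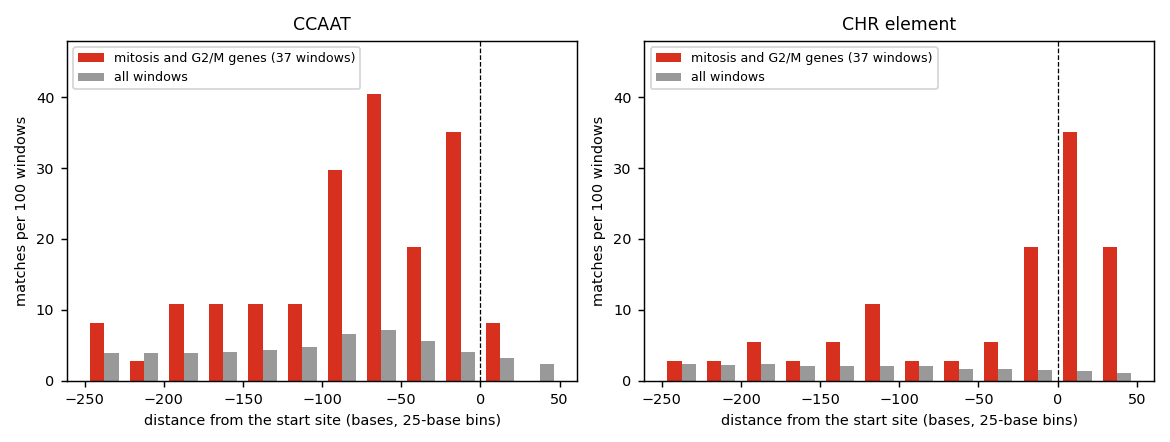
Matches to CCAAT (left) and CHR (right) per 100 promoter windows, in 25-base bins by distance from the start site, for the mitosis and G2/M genes (red, 37 windows of 35 genes) and all RefSeq windows (grey). CCAAT matches are most frequent 75 to 50 bases before the start (40.5 against 7.2 per 100 windows), and CHR matches in the first 25 bases after it (35.1 against 1.4).

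The estimated depth was 20.31 to 31.45 megareads a library, from the step between low RPKM values of genes with 1 transcript. The RPKM of the overexpressed microRNA genes matched the labels, while the level of mature microRNA was not measured here. Mir27a stood at 50014 to 79108 RPKM in miR-27 Tg and 13710 to 24076 in cluster Tg, against 0 to 347 in WT. Mir24-2 stood at 7999 to 22325 in miR-24 Tg and 6052 to 7943 in cluster Tg, against 0 to 50 in WT. Mir23a stood at 31028 to 38276 in miR-23 Tg and 11691 to 22900 in cluster Tg, against 0 to 155 in WT. In DKO Mir23a and Mir27a were listed at 0 and Mir24-2 at 0 to 11, and since WT values also reached 0 for each, these levels do not separate DKO from WT. The 6 Treg and T cell markers (Foxp3, Il2ra, Ctla4, Ikzf2, Cd4 and Cd3e) summed to 1487 to 1921 RPKM in every library. The sum was 1542, 1534 and 1559 in miR-23 Tg, against 1756, 1582 and 1739 in WT. Single markers were less even. Foxp3 lay below all WT libraries in every miR-23 Tg and cluster Tg library, though not at an adjusted p under 0.05 (limma). It was 327.7, 289.7 and 196.6 in miR-27 Tg, and its lowest WT value was 286.6. In miR-23 Tg, Ikzf2 also lay below all WT libraries (66.8, 58.7 and 83.8, against 96.6, 100.7 and 110.7). So did Il2ra (163, 155 and 183, against 208, 203 and 254). Neither passed that threshold, and Ctla4, Cd4 and Cd3e overlapped WT there. Cd4 was higher than in WT at that threshold in miR-27 Tg and cluster Tg. Transcripts of other blood cells also varied. Summed over 17 B cell genes, the level was 435, 518 and 866 RPKM in the miR-27 Tg libraries, 933, 366 and 242 in miR-24 Tg, and 187, 207 and 138 in WT. With the highest sums, miR-24 Tg library 1 and library 3 of miR-27 Tg stood apart, and results that rest on them are also given without both.

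The mitotic genes were highest in Treg that overexpressed miR-27, also higher than in WT in every cluster Tg and miR-23 Tg library, uneven in miR-24 Tg and overlapping with WT in DKO. Relative to the WT mean of each gene, the median of the 40 genes on the log2(RPKM + 0.5) scale was 1.27, 2.65 and 2.67 in the miR-27 Tg libraries. It was 1.33, 1.14 and 1.52 in cluster Tg, and 1.31, 1.28 and 1.30 in miR-23 Tg. The miR-24 Tg libraries had medians of 0.69, −0.03 and 1.41, the DKO libraries −0.54, −0.18 and 0.55, and the WT libraries themselves −0.47, 0.09 and 0.42. The genes moved as a block. The highest of the 18 libraries was miR-27 Tg library 2 for 23 genes and miR-27 Tg library 3 for 17, and the lowest was DKO library 1 for 28 and WT library 1 for 12. In these sorted populations more cycling cells, whether Treg or other cells, and more transcript per cycling cell cannot be told apart.

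**Figure D2:**
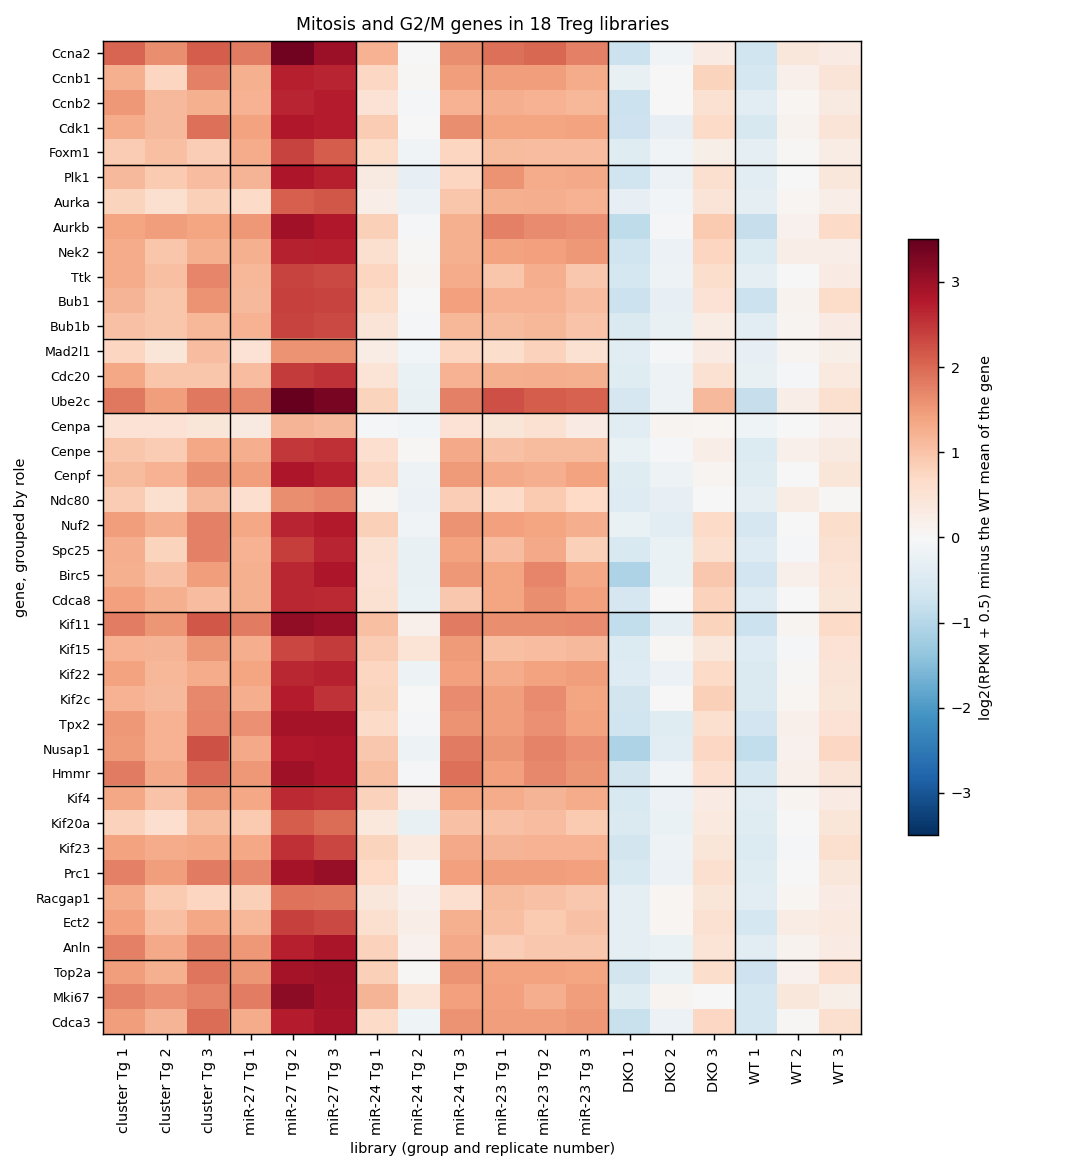
Heat map of log2(RPKM + 0.5) minus the WT mean of the gene, for the 40 genes (rows, grouped by role) in the 18 libraries (columns). Every gene has its highest value in library 2 or 3 of miR-27 Tg, and library 1 of miR-27 Tg resembles the cluster Tg and miR-23 Tg columns.

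In limma fits over 11520 genes, with p-values adjusted over all of them, 40 of 40 mitotic genes rose in miR-27 Tg against WT (15.9% of all genes tested were called higher). Here and below, a gene is said to rise or fall where its adjusted p was under 0.05. In cluster Tg against WT 28 of 40 rose (13.8% of all genes). Against WT, 0 of 40 were called in miR-24 Tg (4.60% of all genes) and likewise 0 in miR-23 Tg (0.156%). In DKO against WT 0 of 40 were called in either direction (0.0174% of all genes were called higher and 0% lower). None of the 40 was called lower in any overexpressing genotype against WT (12.7% of all genes in miR-27 Tg, 10.5% in cluster Tg, 4.38% in miR-24 Tg and 0.200% in miR-23 Tg). At an unadjusted p under 0.05, limma gave 40 genes for miR-27 Tg, 39 for cluster Tg, 5 for miR-24 Tg, 39 for miR-23 Tg and 0 for DKO. The median log2 fold change of the 40 genes was 2.21 in miR-27 Tg (0.88 to 2.82), 1.29 in cluster Tg (0.48 to 1.93), 1.34 in miR-23 Tg (0.41 to 2.15), 0.69 in miR-24 Tg (0.11 to 1.03) and −0.07 in DKO (−0.24 to 0.17). Leaving out 1 library at a time, the miR-27 Tg median ran 1.94 to 2.68, that of cluster Tg 1.07 to 1.52, of miR-23 Tg 1.09 to 1.52 and of miR-24 Tg 0.32 to 1.05, and it changed sign in DKO (−0.37 to 0.18). Over all tested genes the medians were 0 to 0.02. The 5 comparisons share the WT libraries. On this scale the folds of low genes are understated.

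Of the cyclins and their partners, 5 of 5 rose in miR-27 Tg and 4 of 5 in cluster Tg. Ccna2, the A-type cyclin of S phase and G2, stood at 17.5, 53.3 and 40.3 RPKM in miR-27 Tg and 20.6, 15.4 and 21.98 in cluster Tg, against 2.69, 6.30 and 5.74 in WT. It stood at 11.5, 4.73 and 15.3 in miR-24 Tg, 19.2, 20.1 and 16.9 in miR-23 Tg and 2.57, 4.19 and 5.78 in DKO. All libraries of miR-27 Tg, cluster Tg and miR-23 Tg lay above all WT libraries, while miR-24 Tg and DKO overlapped WT. Its log2 fold change was 2.73 ± 0.44 (SE; adjusted p = 0.000572) in miR-27 Tg and 1.93 ± 0.44 (SE; adjusted p = 0.00639) in cluster Tg. In cluster Tg this was the largest value of the 40 genes.
Ccnb1, the main mitotic B-type cyclin, was low in WT. It had 2.13, 6.82 and 6.45 RPKM in miR-27 Tg and 2.12, 1.37 and 3.22 in cluster Tg, against 0.221, 0.746 and 0.994 in WT. Values in the other genotypes were 1.33, 0.642 and 2.57 in miR-24 Tg, 2.52, 2.53 and 2.24 in miR-23 Tg and 0.430, 0.599 and 1.38 in DKO. The cluster Tg libraries were all above WT, yet the difference of 1.25 ± 0.44 just missed the threshold (adjusted p = 0.053), whereas miR-27 Tg gave 2.21 ± 0.44 (SE; adjusted p = 0.00228). Cdk1, the kinase that these cyclins activate, stood at 7.53, 20.6 and 19.7 RPKM in miR-27 Tg and 6.95, 6.18 and 10.98 in cluster Tg, against 1.54, 2.79 and 3.65 in WT, and rose in both. In miR-24 Tg it had 5.09, 2.54 and 8.91, in miR-23 Tg 7.43, 7.32 and 7.52 and in DKO 1.33, 1.99 and 4.34. The miR-23 Tg libraries were almost equal to each other, and those of miR-24 Tg reached into the WT range. Foxm1, a transcription factor of G2/M genes, had 8.47, 18.3 and 15.5 RPKM in miR-27 Tg and 6.26, 7.12 and 6.12 in cluster Tg, against 2.46, 3.26 and 3.89 in WT. It had 5.16, 2.84 and 5.69 in miR-24 Tg, 7.38, 7.24 and 7.24 in miR-23 Tg and 2.25, 2.88 and 3.71 in DKO. It rose by 1.93 ± 0.27 (SE; adjusted p = 0.000218) in miR-27 Tg and by 0.93 ± 0.27 (SE; adjusted p = 0.0212) in cluster Tg.

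Of the 7 mitotic kinases, 7 rose in miR-27 Tg and 3 (Aurkb, Ttk and Bub1b) in cluster Tg. Plk1, which acts from mitotic entry to cytokinesis, had 7.39, 24.02 and 21.99 RPKM in miR-27 Tg and 7.11, 5.94 and 6.77 in cluster Tg, against 2.09, 2.97 and 4.0001 in WT. Its values were 3.77, 2.29 and 5.31 in miR-24 Tg, 9.75, 7.88 and 8.11 in miR-23 Tg and 1.61, 2.47 and 4.56 in DKO. For this kinase the miR-23 Tg libraries lay above the cluster Tg libraries, and miR-24 Tg was close to WT, with a log2 difference of 0.26 ± 0.40 (SE). Aurkb, the kinase of the chromosomal passenger complex, had 11.6, 31.4 and 28.6 RPKM in miR-27 Tg and 10.4, 10.97 and 10.5 in cluster Tg, against 1.90, 4.14 and 6.10 in WT. It had 6.91, 3.54 and 9.41 in miR-24 Tg, 13.6, 12.8 and 12.3 in miR-23 Tg and 1.76, 3.53 and 7.39 in DKO. It rose by 2.42 ± 0.48 (SE; adjusted p = 0.00204) in miR-27 Tg and by 1.41 ± 0.48 (SE; adjusted p = 0.0441) in cluster Tg. Bub1b, which encodes the checkpoint protein BubR1, had 11.4, 26.1 and 25.2 RPKM in miR-27 Tg and 10.04, 9.63 and 10.9 in cluster Tg, against 3.41, 5.02 and 5.78 in WT. It had 6.52, 4.46 and 11.1 in miR-24 Tg, 10.6, 10.9 and 9.76 in miR-23 Tg and 3.15, 3.82 and 5.68 in DKO. Only miR-24 Tg and DKO shared a range with WT. Aurka, the spindle pole kinase, rose by 1.65 ± 0.36 (SE; adjusted p = 0.00375) in miR-27 Tg, while its difference in cluster Tg was 0.72 ± 0.36 (adjusted p = 0.159).

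Of the 3 checkpoint and APC/C genes, 3 rose in miR-27 Tg and only Ube2c in cluster Tg. Ube2c, the ubiquitin-conjugating enzyme that works with APC/C, showed the largest fold of the 40 genes in both miR-27 Tg and miR-23 Tg. It had 17.5, 62.3 and 56.3 RPKM in miR-27 Tg and 19.7, 15.2 and 19.8 in cluster Tg, against 2.73, 6.15 and 7.91 in WT. It had 9.20, 4.22 and 18.7 in miR-24 Tg, 26.7, 24.0001 and 23.1 in miR-23 Tg and 3.28, 4.53 and 11.98 in DKO. Library 1 of miR-27 Tg was lower than each miR-23 Tg library, and libraries 2 and 3 were higher than all others. The log2 fold change was 2.82 ± 0.57 (SE; adjusted p = 0.00231) in miR-27 Tg, a 7.08-fold rise, and 1.72 ± 0.57 (SE; adjusted p = 0.0396) in cluster Tg. Cdc20, the mitotic coactivator of APC/C, had 11.4, 30.5 and 32.2 RPKM in miR-27 Tg and 14.1, 10.5 and 10.7 in cluster Tg, against 4.20, 4.88 and 6.73 in WT. It had 7.47, 4.34 and 12.6 in miR-24 Tg, 13.04, 13.2 and 12.99 in miR-23 Tg and 3.76, 4.54 and 7.78 in DKO. The miR-27 Tg difference was 2.01 ± 0.39 (SE; adjusted p = 0.00181), and that of cluster Tg was 1.10 ± 0.39 (adjusted p = 0.0524) although its libraries did not overlap WT. Mad2l1, the checkpoint protein that binds Cdc20, had the second smallest rise of the 40 genes in miR-27 Tg, by 1.21 ± 0.29 (SE; adjusted p = 0.00642).

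Of the 8 centromere, kinetochore and passenger genes, 8 rose in miR-27 Tg and 4 (Cenpe, Cenpf, Nuf2 and Cdca8) in cluster Tg. Cenpa, the histone H3 variant of centromeres, gave the smallest fold of the set in all 4 overexpressing genotypes and the highest level among the 40 in WT. It had 33.01, 60.2 and 58.4 RPKM in miR-27 Tg and 37.6, 37.6 and 35.4 in cluster Tg, against 23.6, 26.1 and 29.4 in WT. It had 24.9, 24.5 and 37.4 in miR-24 Tg, 35.1, 37.98 and 32.1 in miR-23 Tg and 20.3, 27.999 and 27.5 in DKO. Its log2 fold change was 0.88 ± 0.21 (SE; adjusted p = 0.00646) in miR-27 Tg. Ndc80, which binds microtubules at the outer kinetochore, had 7.35, 15.7 and 16.8 RPKM in miR-27 Tg and 9.18, 7.29 and 11.04 in cluster Tg, against 3.76, 5.78 and 4.95 in WT. It had 5.07, 4.09 and 9.06 in miR-24 Tg, 7.86, 9.48 and 8.04 in miR-23 Tg and 3.38, 3.82 and 4.79 in DKO. Its cluster Tg difference of 0.86 ± 0.30 stood at the threshold (adjusted p = 0.0503), and that of miR-27 Tg was 1.31 ± 0.30 (SE; adjusted p = 0.00525). Birc5, which encodes the passenger protein survivin, had 23.9, 63.7 and 72.9 RPKM in miR-27 Tg and 23.7, 20.4 and 27.9 in cluster Tg, against 5.94, 11.2 and 13.9 in WT. It had 13.99, 8.05 and 29.2 in miR-24 Tg, 26.0004, 32.8 and 25.7 in miR-23 Tg and 4.40, 8.32 and 19.2 in DKO. Among the DKO libraries Birc5 ran from below all WT libraries to above them. It was called higher only in miR-27 Tg, by 2.24 ± 0.53 (SE, adjusted p = 0.0066). All cluster Tg and miR-23 Tg libraries also lay above all WT libraries, without a call.

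**Figure D3:**
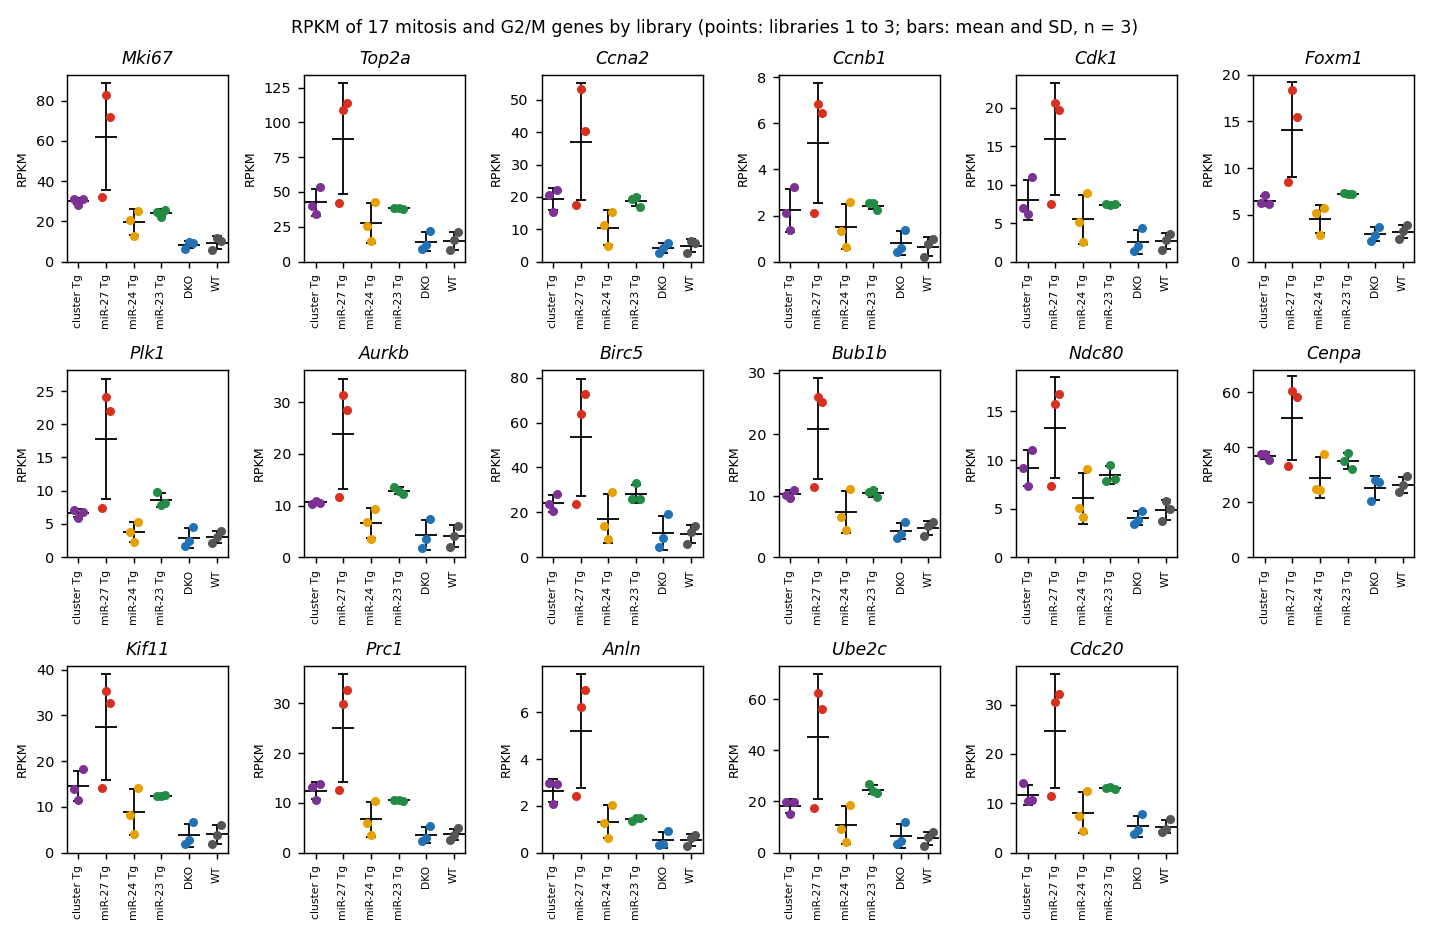
RPKM by library for 17 of the genes in the 6 genotypes, with mean and SD (n = 3). The miR-27 Tg points split into 1 lower and 2 high libraries, the miR-23 Tg points lie close together, and in each gene the DKO points overlap the range of the WT points.

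Of the 7 kinesins and spindle proteins, 7 rose in each of miR-27 Tg and cluster Tg (Kif11, Kif15, Kif22, Kif2c, Tpx2, Nusap1 and Hmmr). Kif11, the motor that pushes spindle poles apart, had 14.2, 35.4 and 32.7 RPKM in miR-27 Tg and 13.97, 11.6 and 18.2 in cluster Tg, against 1.98, 3.94 and 6.07 in WT. It had 8.22, 4.19 and 14.1 in miR-24 Tg, 12.3, 12.4 and 12.5 in miR-23 Tg and 1.79, 2.85 and 6.68 in DKO. Library 2 of miR-24 Tg lay within the WT range while library 3 was as high as library 1 of miR-27 Tg. Kif11 rose by 2.64 ± 0.49 (SE; adjusted p = 0.00134) in miR-27 Tg and by 1.83 ± 0.49 (SE; adjusted p = 0.0143) in cluster Tg. Hmmr, which helps organise spindle microtubules, rose by 2.45 ± 0.48 (SE; adjusted p = 0.00197) in miR-27 Tg and by 1.71 ± 0.48 (SE; adjusted p = 0.0193) in cluster Tg.

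Of the 7 midzone and cytokinesis genes, 7 rose in miR-27 Tg and all except Kif20a in cluster Tg. Prc1, which bundles microtubules of the midzone, had 12.6, 29.8 and 32.7 RPKM in miR-27 Tg and 13.1, 10.6 and 13.8 in cluster Tg, against 2.52, 3.57 and 4.86 in WT. It had 6.03, 3.61 and 10.4 in miR-24 Tg, 10.5, 10.5 and 10.4 in miR-23 Tg and 2.29, 3.03 and 5.42 in DKO. The lowest miR-27 Tg library was still more than any miR-23 Tg, miR-24 Tg, DKO or WT library. Prc1 rose by 2.55 ± 0.38 (SE; adjusted p = 0.000379) in miR-27 Tg. Anln, the contractile ring protein anillin, had 2.41, 6.22 and 6.93 RPKM in miR-27 Tg and 2.96, 2.07 and 2.92 in cluster Tg, against 0.274, 0.611 and 0.750 in WT. It had 1.28, 0.630 and 2.05 in miR-24 Tg, 1.36, 1.46 and 1.47 in miR-23 Tg and 0.329, 0.367 and 0.921 in DKO. Both miR-27 Tg and cluster Tg lay above miR-23 Tg for this gene. It rose by 2.36 ± 0.35 (SE; adjusted p = 0.000365) in miR-27 Tg and by 1.61 ± 0.35 (SE; adjusted p = 0.00502) in cluster Tg.

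Of the last 3 genes, Top2a, Mki67 and Cdca3, 3 rose in both genotypes. Mki67, the chromosome surface protein used as a marker of cycling cells, had 31.9, 82.6 and 71.7 RPKM in miR-27 Tg and 30.96, 28.1 and 31.1 in cluster Tg, against 5.69, 11.8 and 10.4 in WT. It had 20.8, 12.5 and 25.1 in miR-24 Tg, 24.9, 22.3 and 25.7 in miR-23 Tg and 6.45, 9.60 and 9.01 in DKO. It was the 1 gene of the 40 whose miR-24 Tg libraries all lay above all WT libraries. The log2 fold change was 2.62 ± 0.33 (SE; adjusted p = 0.000128) in miR-27 Tg, 1.70 ± 0.33 (SE; adjusted p = 0.0025) in cluster Tg and 1.03 ± 0.33 in miR-24 Tg (adjusted p = 0.0685). Top2a, the topoisomerase that untangles sister chromatids, had 42.3, 109 and 114 RPKM in miR-27 Tg and 39.9, 34.4 and 53.3 in cluster Tg, against 8.42, 15.6 and 21.3 in WT. It had 25.7, 14.5 and 43.02 in miR-24 Tg, 38.1, 38.7 and 37.7 in miR-23 Tg and 8.92, 11.99 and 21.9 in DKO. Again libraries 2 and 3 of miR-27 Tg stood above the other 16. It rose by 2.47 ± 0.45 (SE; adjusted p = 0.0013) in miR-27 Tg and by 1.53 ± 0.45 (SE; adjusted p = 0.0243) in cluster Tg.

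In miR-23 Tg the groups separated but no gene was called. For 40 of 40 genes all 3 miR-23 Tg libraries lay above all 3 WT libraries (14.1% of all genes did so), and 0 were called by limma. The largest differences were in Ube2c, 2.15 ± 0.57 (SE; adjusted p = 0.118), in Ccna2, 1.90 ± 0.44 (SE; adjusted p = 0.0881), and in Aurkb, 1.68 ± 0.48 (SE; adjusted p = 0.14). The smallest were in Cenpa, 0.41 ± 0.21, Mad2l1, 0.65 ± 0.29, and Ndc80, 0.76 ± 0.30. Within miR-23 Tg the highest library exceeded the lowest by a median of 1.12-fold over the 40 genes, against 2.21-fold within WT, 2.89-fold within miR-24 Tg and 2.68-fold within miR-27 Tg. The fit shares 1 spread per gene over the 6 genotypes, and the median standard error of the 40 genes was 0.40, against 0.13 over all tested genes. Cluster Tg against WT, with 28 calls, had the same 0.40 and a median log2 fold change of 1.29 (1.34 here). Adjusted p depends on all tested genes. Of these, 4249 had an unadjusted limma p under 0.05 for cluster Tg, but 1567 for miR-23 Tg. For Ccna2, unadjusted limma p-values of 0.000621 (cluster Tg) and 0.000713 (miR-23 Tg) became 0.00639 and 0.0881. The call counts therefore do not rank these genotypes by size of difference. With miR-23 Tg and WT alone in the fit, 10 of 40 were called higher, against 1.02% of all genes.

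In cluster Tg 40 of 40 genes lay above WT without overlap (22.6% of all genes), as they did in miR-27 Tg (22.8%). The 12 genes not called in cluster Tg were Ccnb1, Plk1, Aurka, Nek2, Bub1, Mad2l1, Cdc20, Cenpa, Ndc80, Spc25, Birc5 and Kif20a, with adjusted p between 0.0503 (Ndc80) and 0.159 (Aurka). The count of 28 moved with single libraries: it was 7 without cluster Tg library 1, 11 without cluster Tg library 3, 4 without WT library 1 and 15 without WT library 2. In miR-27 Tg the count stayed at 40 without any 1 library of either genotype, and without both libraries of high B cell level.

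In miR-24 Tg the 3 libraries were ordered alike for every gene, with library 3 highest and library 2 lowest in 40 of 40. Without overlap with WT there was 1 gene, Mki67 (15.9% of all genes). The largest differences were in Mki67, Kif11 (1.02 ± 0.49, adjusted p = 0.217) and Hmmr (0.99 ± 0.48, adjusted p = 0.225), and the smallest in Cenpa (0.11 ± 0.21), Ndc80 (0.25 ± 0.30) and Plk1. These genes were above WT by their means, and 0 of 40 were called.

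In DKO, where both clusters were deleted, 9 genes were above WT by their means and 31 below. The largest values were in Ccnb1 (0.17 ± 0.44), Ube2c (0.13 ± 0.57) and Ect2 (0.09 ± 0.35), and the smallest in Nusap1 (−0.24 ± 0.57), Ndc80 (−0.24 ± 0.30) and Ccna2 (−0.19 ± 0.44). No gene separated DKO from WT without overlap (3.32% of all genes lay above and 2.73% below). For Mki67 the 95% interval of the log2 difference ran −0.82 to 0.61, and for Cenpa, whose standard error was the smallest, −0.52 to 0.38. Differences inside these intervals were not detectable with 3 libraries a genotype.

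**Figure D4:**
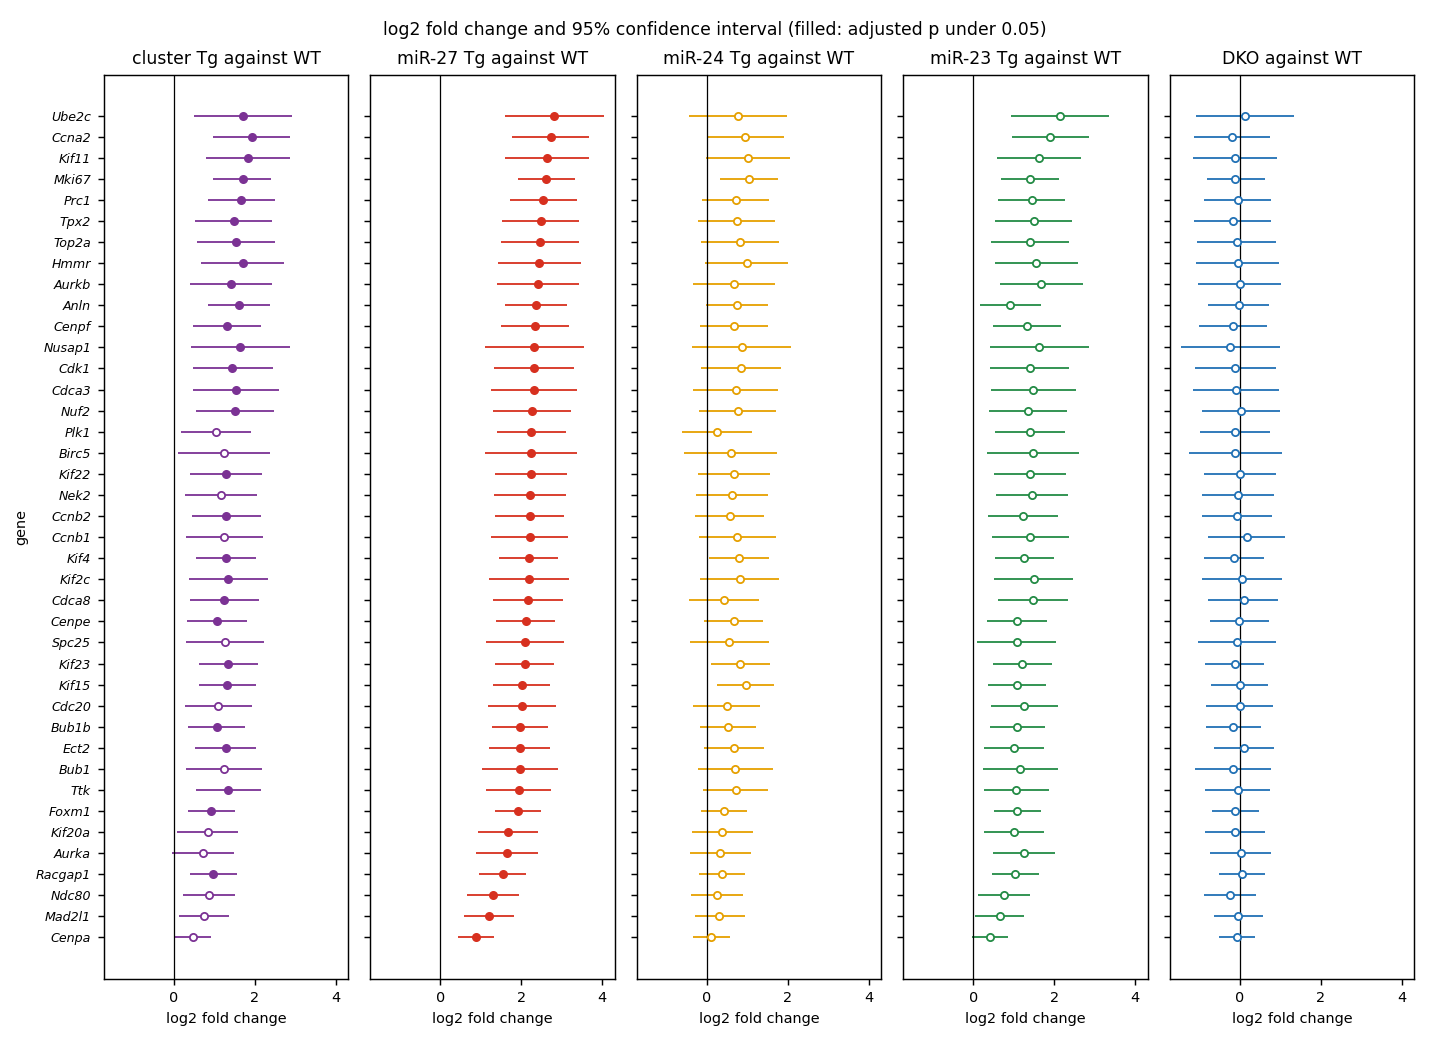
log2 fold change against WT with its 95% confidence interval for the 40 genes (ordered by miR-27 Tg) in the 5 comparisons, with filled points where the adjusted p was under 0.05. All 40 points are filled in miR-27 Tg, 28 in cluster Tg and 0 in miR-24 Tg, miR-23 Tg and DKO, although each miR-23 Tg point is above 0.

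Set directly against each other, miR-27 Tg exceeded miR-24 Tg in 38 of 40 genes (13.2% of all genes called higher), with a median log2 difference of 1.51. The 2 genes not called were Bub1 (adjusted p = 0.0508) and Nusap1 (adjusted p = 0.077). Of the differences, Ube2c (2.06 ± 0.57, adjusted p = 0.0174), Plk1 (1.99 ± 0.40, adjusted p = 0.00344) and Prc1 (1.83 ± 0.38, adjusted p = 0.0043) were largest, and Cenpa (0.77 ± 0.21, adjusted p = 0.0165), Mad2l1 (0.89 ± 0.29, adjusted p = 0.0359) and Kif15 (1.05 ± 0.33, adjusted p = 0.0325) were smallest. This count fell to 11 without miR-27 Tg library 2, to 12 without miR-27 Tg library 3, to 24 without miR-24 Tg library 1, to 11 without miR-24 Tg library 2, to 3 without both libraries of high B cell level and to 0 with only these genotypes in the fit. Against miR-23 Tg, miR-27 Tg was higher in 4 of 40 genes (12.4% of all genes), Anln (1.45 ± 0.35, adjusted p = 0.00983), Mki67 (1.23 ± 0.33, adjusted p = 0.0167), Foxm1 (0.84 ± 0.27, adjusted p = 0.0357) and the kinetochore kinesin Cenpe (1.03 ± 0.34, adjusted p = 0.0438). This share is close to that of all genes. Prc1 also had a difference among the 3 largest (1.10 ± 0.38, adjusted p = 0.0523), and the smallest were in Aurka (0.40 ± 0.36), Cenpa (0.47 ± 0.21) and Racgap1 (0.51 ± 0.27), a component of the central spindle. The median difference was 0.85, and 15 genes did not overlap (21.6% of all genes). Without miR-27 Tg library 1, 31 were higher, and without any other library of the pair 1 or 2 were. Cluster Tg was lower than miR-27 Tg in Foxm1 alone (−1 ± 0.27, adjusted p = 0.0389), where 3.35% of all genes were called lower and 3.50% higher, and the median difference was −0.87. The largest other differences were in Plk1 (−1.20 ± 0.40), Ube2c (−1.11 ± 0.57) and Cenpe (−1.04 ± 0.34), none called, and the differences nearest 0 were in Cenpa (−0.40 ± 0.21), Ndc80 (−0.45 ± 0.30) and Mad2l1 (−0.46 ± 0.29). Without miR-27 Tg library 1 the count was 22, and without any other library of these 2 genotypes it was 0.

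A comparison of cluster Tg with miR-23 Tg was added after the values were seen, because the medians of these genotypes against WT were close. The median log2 difference of the 40 genes was 0.02, and limma called 0 of 40 in either direction (10.9% of all genes were called higher and 7.89% lower), with 0 at an unadjusted p under 0.05. Without overlap, 5 genes were above (19.7% of all genes) and 6 below (17.7%). Aurka had 6.63, 5.64 and 6.90 RPKM in cluster Tg, against 9.40, 9.53 and 9.20 in miR-23 Tg, a log2 difference of −0.52 ± 0.36 (SE). Anln had 2.96, 2.07 and 2.92 RPKM in cluster Tg, against 1.36, 1.46 and 1.47 in miR-23 Tg, a log2 difference of 0.69 ± 0.35. These genes separated the genotypes in opposite directions, and neither was called. After Anln the largest values were in Mki67 (0.30 ± 0.33) and Ttk (0.29 ± 0.38), and after Aurka the smallest in Ube2c (−0.43 ± 0.57) and Plk1 (−0.35 ± 0.40).

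Transcripts of other cell types moved with the overexpressing genotypes. The B cell sum was 375, 291 and 267 RPKM in cluster Tg, 435, 518 and 866 in miR-27 Tg, 933, 366 and 242 in miR-24 Tg, 413, 406 and 274 in miR-23 Tg, and 157, 240 and 268 in DKO, against 187, 207 and 138 in WT. Each overexpressing genotype lay above WT (exact two-sided permutation p = 0.1, the smallest that 3 against 3 libraries allow). Of the 17 B cell genes, 16 were above WT without overlap in miR-27 Tg, 15 in miR-24 Tg, 15 in miR-23 Tg and, for cluster Tg, 8. Summed over 7 plasma cell genes the level was 80.1, 99.5 and 173 RPKM in miR-27 Tg, against 56.2, 54.1 and 61.3 in WT, where Tnfrsf17 was at 0. This level was 74.9, 73.7 and 68.9 in cluster Tg, 94.3, 67.2 and 65.3 in miR-24 Tg and 88.5, 85.1 and 69.1 in miR-23 Tg. In DKO it was 58.5, 72 and 70.2. Over 14 myeloid genes the level was 123, 172 and 243 in miR-27 Tg and 347, 172 and 145 in miR-24 Tg, against 101, 112 and 107 in WT. This level was 168, 137 and 150 in cluster Tg, 167, 184 and 132 in miR-23 Tg and 91.5, 125 and 133 in DKO. Over 7 erythroid genes, mostly globins, it was 2.12, 2.53 and 11.5 in cluster Tg, 2.63, 180 and 68.3 in miR-27 Tg, 73.7, 18.1 and 3.97 in miR-24 Tg, 37.4, 41.2 and 11.1 in miR-23 Tg and 0.291, 4.94 and 2.66 in DKO, against 2.35, 23.1 and 1.2 in WT. Libraries 2 and 3 of miR-27 Tg, the highest in mitotic genes, were thus also high in erythroid transcripts, the median erythroid log2 fold change in miR-27 Tg was 2.25, and 0 of 5 tested erythroid genes were called or lay above WT without overlap. Sums over 6 NK cell genes were 8.88, 7.7 and 20.5 in miR-27 Tg, against 4.97, 7.06 and 4.65 in WT. Sums over 2 CD8 T cell genes (16.6, 17.9 and 30.8 in miR-27 Tg, against 17.7, 17.5 and 16.3 in WT) and over 4 platelet genes (0.945, 0.595 and 0.559, against 1.59, 0.85 and 1.12) overlapped between these genotypes. In miR-24 Tg the CD8 T cell sums (20.3, 19.4 and 18.8) and the NK cell sums (11.7, 9.87 and 8.51) lay above all WT libraries. In cluster Tg and miR-23 Tg both overlapped WT. The part of plasma cell, myeloid, erythroid and NK cell transcripts in the result was not tested. For B cell transcripts a covariate was fitted, but it is confounded with genotype. In miR-24 Tg the library with the highest level of 40 of 40 mitotic genes, library 3, had the lowest B cell sum of the group. In WT, library 3 was highest for 37 of the 40 genes and also had the lowest B cell sum. In the other direction, miR-27 Tg library 1 was lowest in its group for 40 genes and in B cell sum, and DKO library 3 was highest for 38 genes and in B cell sum. With the B cell level as a covariate in the fit, the median log2 fold change was 1.5 in miR-27 Tg with 1 of 40 called higher (2.82% of all genes) and a median standard error of 0.58. With this covariate it was 1.1 in cluster Tg with 11 called (11.7% of all genes), 0.13 in miR-24 Tg and 0.81 in miR-23 Tg. Since every overexpressing genotype lay above WT in B cell sum, this fit cannot tell a B cell share and a genotype effect apart. Without these outlying libraries of miR-24 Tg and miR-27 Tg the medians were 1.98 in miR-27 Tg and 0.71 in miR-24 Tg.

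**Figure D5:**
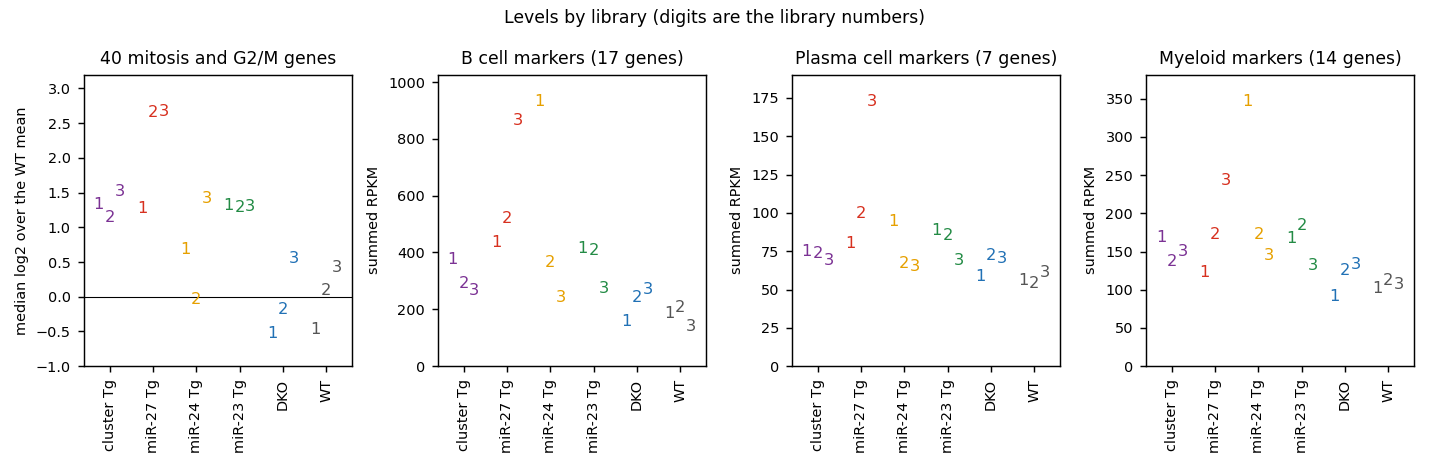
By library, the median log2 difference of the 40 mitotic genes to their WT mean (left), and summed RPKM of B cell, plasma cell and myeloid marker genes; digits give the library number. Library 1 of miR-24 Tg has the highest B cell sum (933 RPKM) with a mitotic median of 0.69, while library 3 of miR-24 Tg has 242 RPKM and 1.41.

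Other genes of the pathway were examined as lists, beside the shares of all tested genes called higher (15.9% in miR-27 Tg, 13.8% in cluster Tg) and lower (12.7% and 10.5%). Of 47 further mitotic genes, 45 were higher in miR-27 Tg (median log2 fold change 1.73) and 21 were higher in cluster Tg (median 0.96). In miR-24 Tg 1 rose, and 0 passed the test in miR-23 Tg (median 0.93) and DKO (median −0.06). The 1 gene was Cdc25b, the phosphatase that activates cyclin-dependent kinases at G2/M. It had 44.7, 59.4 and 61.9 RPKM in miR-27 Tg libraries, 43.5, 45.5 and 38.04 in cluster Tg and 35.9, 34.7 and 37.9 in miR-24 Tg, against 23.3, 24.7 and 27.3 in WT. These groups did not overlap WT, and its log2 fold change was 1.11 ± 0.11 (SE; adjusted p = 1.88e-05) in miR-27 Tg, 0.74 ± 0.11 (SE; adjusted p = 0.000371) in cluster Tg and 0.52 ± 0.11 (SE; adjusted p = 0.00863) in miR-24 Tg. Gtse1, expressed in G2 and S phase, rose by 2.04 ± 0.24 (SE; adjusted p = 6.25e-05) in miR-27 Tg and by 1.13 ± 0.24 (SE; adjusted p = 0.00361) in cluster Tg. Pttg1, which encodes securin, did not pass the test and averaged 37.8 RPKM in the miR-27 Tg libraries, against 44 RPKM in WT. Of 13 condensin and cohesin genes, 7 rose with miR-27 Tg (against 15.9% of all genes) and 6 with cluster Tg (against 13.8%), with medians of 0.26 and 0.32, among them Ncapd2 (1.41 ± 0.20, adjusted p = 0.00023, in miR-27 Tg). Of 30 S phase genes, 28 rose in miR-27 Tg (median 0.93) and 6 in cluster Tg (median 0.50).

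Of 20 genes of the MuvB, Rb and E2F families, 11 rose and 1 fell in miR-27 Tg (15.9% of all genes higher, 12.7% lower), and 5 rose and 1 fell in cluster Tg (13.8% higher, 10.5% lower). Their median log2 fold change was 0.31 (miR-27 Tg) and 0.23 (cluster Tg). Mybl2, which encodes B-Myb, had 3.52, 7.95 and 7.98 RPKM in miR-27 Tg, against 1.46, 1.82 and 1.72 in WT, and rose by 1.61 ± 0.26 (SE; adjusted p = 0.000502). Rbl1, which encodes the Rb relative p107, had 25.1, 31.3 and 28.5 RPKM in miR-27 Tg, against 18.7, 19.6 and 18.8 in WT, and rose by 0.56 ± 0.09 (SE; adjusted p = 0.000429). The Rbl1 levels of miR-27 Tg lay above all WT libraries. E2f4, which encodes an E2F of resting cells, had 52.1, 62.97 and 54.3 RPKM in cluster Tg and 56.5, 51.9 and 52.7 in miR-24 Tg, against 71.7, 70.7 and 71.8 in WT, and fell in both, with log2 fold changes of −0.34 ± 0.07 (SE; adjusted p = 0.0036) in cluster Tg and −0.41 ± 0.07 (SE; adjusted p = 0.00326) in miR-24 Tg. In miR-27 Tg E2f5 fell instead, with a log2 fold change of −0.60 ± 0.12 (SE; adjusted p = 0.00195). Of 16 other genes of APC/C and its partners 2 rose and 2 fell in miR-27 Tg, and 0 rose and 1 fell in cluster Tg, shares near or under those of all genes, with medians of 0.10 and 0.04. Fzr1, the coactivator of late mitosis and G1, rose by 0.59 ± 0.10 (SE; adjusted p = 0.000741) in miR-27 Tg. Inhibitors rose beside the kinases, with 3 of 6 tested CDK inhibitor genes higher in each of miR-27 Tg and cluster Tg (15.9% and 13.8% of all genes). Cdkn2c, which encodes p18, had 22.3, 35.6 and 39.5 RPKM in miR-27 Tg and 33.9, 24.2 and 22.9 in cluster Tg, against 5.73, 6.17 and 7.21 in WT. Of 15 genes of quiescent T cells, 6 fell in miR-27 Tg (12.7% of all genes), 5 in cluster Tg (10.5%), 3 in miR-24 Tg (4.38%) and 0 in miR-23 Tg (0.200%) and DKO (0%). Ccr7, the chemokine receptor of resting T cells, had 88.7, 106 and 101 RPKM in miR-27 Tg and 71.8, 92.02 and 102 in cluster Tg, against 177, 167 and 177 in WT, with log2 fold changes of −0.82 ± 0.13 (SE; adjusted p = 0.000429) in miR-27 Tg and −0.98 ± 0.13 (SE; adjusted p = 0.000164) in cluster Tg. Neither genotype overlapped WT for Ccr7.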

How the data were processed

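Total RNA of sorted Treg was sequenced on an Illumina HiSeq from TruSeq libraries, per the labels' protocols. STAR 2.2.0c, HOMER and the builds mm10 and GRCm38 are named in the submitters' processing notes. The authors deposited RPKM per gene (23953 entries, of which 4 with repeated symbols were left out). Strandedness and annotation were not given in the sources used here. The depth was estimated, so no counting intervals are given. Values were taken as log2(RPKM + 0.5), genes reaching 1 RPKM in 3 or more of the 18 libraries were kept (11520), and limma 3.58.1 in R 4.3.3 was fitted over all 18 libraries (6 groups, eBayes with trend, Benjamini-Hochberg adjustment within each comparison, calls at 0.05, two-sided). The code was tested on simulated data. Differences are log2 fold changes with standard errors. Alternatives were pseudocounts of 0.1 and 1, median-of-ratios scaling, no filter, a fit of the compared genotypes only, a replicate block, a B cell covariate (mean log2 level of the B cell genes) and leaving out each library. The members and gene lists were chosen with earlier results of these data known. Values by library are given for 17 genes, and in each comparison the 3 highest and 3 lowest genes are named; from other lists, up to 4 genes with the smallest p against WT. Bub1, Nusap1, Pttg1, the promoters shown and the uncalled genes of cluster Tg were named after their values were seen. Motif and seed counts used RefSeq promoters (GRCm38.p6) and GENCODE vM21 transcripts.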

Additional observations from a re-analysis of the deposited data

How the results depend on the processing

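Every one of the 40 genes kept its call in miR-27 Tg against WT under both pseudocounts, without a filter, with median-of-ratios scaling, with only these genotypes in the fit and with each library left out (40 to 40). The B cell covariate left 1 call for miR-27 Tg and 11 for cluster Tg against WT, and 2 in miR-27 Tg against miR-23 Tg. Only the compared genotypes in the fit gave 10 calls in miR-23 Tg against WT, 1 in miR-27 Tg against miR-23 Tg, 0 in miR-27 Tg against miR-24 Tg, 0 lower in cluster Tg against miR-27 Tg, and 1 higher and 1 lower in cluster Tg against miR-23 Tg. With a pseudocount of 1, 7 genes were higher in miR-27 Tg than in miR-23 Tg, and without the filter 2 were, while 0 were then lower in cluster Tg than in miR-27 Tg. Without both libraries of high B cell level, 0 were higher in miR-27 Tg against miR-23 Tg, 3 in miR-27 Tg against miR-24 Tg and 0 lower in cluster Tg against miR-27 Tg. The cause of these shifts was not tested.

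Leaving out 1 library gave 4 to 28 calls in cluster Tg, 0 to 1 in miR-24 Tg and 0 in miR-23 Tg and DKO against WT. It gave 1 to 31 calls in miR-27 Tg against miR-23 Tg, 11 to 40 against miR-24 Tg, and 0 to 22 lower in cluster Tg against miR-27 Tg. In DKO the log2 fold change changed sign for Mki67 (−0.41 to 0.09), Nusap1 (−0.73 to 0.18), Ccna2 (−0.54 to 0.08), Ccnb1 (−0.13 to 0.39), Ube2c (−0.37 to 0.49) and Ect2 (−0.21 to 0.31), and in miR-24 Tg for Ndc80 (−0.06 to 0.47) and Cenpa (−0.08 to 0.21). With the B cell covariate miR-24 Tg gave −0.01 for Foxm1, −0.38 for Plk1, −0.06 for Birc5, −0.14 for Ndc80, −0.09 for Cenpa and −0.03 for Cdc20.

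Over all 11520 tested genes, deviations of same-numbered libraries from their genotype means had a median r of 0.004 (45 pairs, −0.167 to 0.188). Pairs with different numbers were not set beside them. Within its genotype, library 1 was lowest for 40 mitotic genes (WT), 40 (miR-27 Tg) and 39 (DKO). Library 3 was highest for 37 (WT), 38 (DKO), 40 (miR-24 Tg) and 27 (cluster Tg). Elsewhere the order differed. Library 2 was lowest for 40 (miR-24 Tg) and 34 (cluster Tg), and library 3 was lowest for 22 (miR-23 Tg). Whether replicate numbers pair the libraries in the mitotic genes was not tested. With a replicate block 38 genes were higher in cluster Tg, 40 in miR-27 Tg, 1 in miR-24 Tg and 0 in miR-23 Tg and DKO against WT, 13 in miR-27 Tg against miR-23 Tg, 40 against miR-24 Tg, and 2 lower in cluster Tg against miR-27 Tg. Promoter shares in a window of 100 bases before to 50 after the start were 71.4% for CCAAT and 77.1% for CHR. The 3 libraries a genotype limit the precision.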
